A study of Mus musculus with 6 samples.

Results

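The genes described here are those of 9 matricellular and related matrix proteins: Ccn1, Ccn2, Ccn3, Ccn4, Thbs1, Spp1, Fn1, Tgfbi and Sparc, of 40564 genes in the table. Ccn3 was chosen by its measured counts in these libraries, as the steadiest change between the genotypes, and the other 8 genes belong to the set by protein family, so the levels of Ccn3 are given as a description with no test. RNA of mouse bronchoalveolar lavage cells, the cells washed out of the airways and alveoli, was sequenced in bulk. There were 2 libraries from Cis Stat6 KO mice (lacking both Cish, which encodes the cytokine-signalling inhibitor CIS, and Stat6, which encodes a transcription factor downstream of interleukin-4 and interleukin-13), 2 from Cis KO mice (lacking Cish, with Stat6 intact) and 2 from WT mice. All 6 were labelled as untreated lung lavage cells with 1 batch date. The sources used here do not state strain, age, sex, the kind of allele, the cells in which it acts or whether animals were pooled. The p-values therefore reflect how far these particular samples spread, which may be technical.

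Matricellular proteins are secreted into the extracellular space, where they act on cells through integrins and other receptors rather than building the matrix as collagens do. The CCN proteins share a modular design with an insulin-like growth factor binding module, a von Willebrand factor type C module, a thrombospondin repeat and, in these 4 members, a cysteine-knot module. Osteopontin (Spp1), fibronectin (Fn1), thrombospondin-1 (Thbs1) and the TGF-beta-induced protein (Tgfbi) are known products of macrophages, whereas Ccn1, Ccn2 and Sparc are best known from fibroblasts and endothelium. In the deposited gene annotation, 8 of the 9 genes (all but Sparc) carried the term integrin binding, which 0.6385% of the 20048 annotated genes carried. The 4 CCN genes carried insulin-like growth factor binding, held by 0.1097% of annotated genes.

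The libraries held 50762354 to 65937118 counts. Cish had 1.72 and 5.04 CPM (read counts scaled for library size) in Cis Stat6 KO, 4.34 and 3.52 CPM in Cis KO and 46.2 and 56.2 CPM in WT. Stat6 had 31.6 and 25.5 CPM in Cis Stat6 KO, 263.9 and 221.0 CPM in Cis KO and 232.5 and 226.5 CPM in WT, so both genes were low in the genotypes named for their loss. All 15 alveolar macrophage markers were detected in every library. One library stood apart: Cis KO replicate 2 had 3.29% of its counts on haemoglobin genes, against at most 0.0366% in the others, and 15855 genes with a count, against 19641 to 20431. Its neutrophil markers summed to 821.5 CPM, against 175.0 to 302.0 CPM in the other libraries, and its airway and alveolar epithelial markers to 275.0 CPM, against 75.8 to 132.7 CPM. Its B cell markers summed to 90.6 CPM, against 42.9 CPM in Cis Stat6 KO replicate 2 and at most 1.10 CPM in the rest. The main values of the members and of the related lists are therefore also given without it. Without it, Cis KO is a single sample, whose spread is taken from the other groups.

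Ccn3 (mm10 chromosome 15, 54745702 to 54754039, plus strand) encodes CCN3, also called NOV, a secreted protein that binds integrins and the Notch1 receptor. Its level per transcript length was 76.2 and 96.0 FPKM (fragment counts scaled for transcript length and library size) in Cis Stat6 KO, 1.50 and 1.22 FPKM in Cis KO and 40.5 and 44.9 FPKM in WT. The libraries fell into 3 levels that did not overlap, lowest in Cis KO and highest in Cis Stat6 KO. These levels rested on 15558 and 16004 counts in Cis Stat6 KO, 282 and 199 counts in Cis KO and 7103 and 9421 counts in WT. The mean was 276.8 ± 73.7 CPM in Cis Stat6 KO, 4.47 ± 0.096 CPM in Cis KO and 130.1 ± 10.7 CPM in WT (SD, n = 2 each).

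As a description, the fitted log2 fold change of Ccn3 was -4.86 ± 0.26 in Cis KO over WT (SE), a level 29.0-fold lower. It was 5.95 ± 0.28 in Cis Stat6 KO over Cis KO, 61.8-fold higher, and 1.09 ± 0.22 in Cis Stat6 KO over WT, 2.13-fold higher. The level in Cis Stat6 KO thus stood above WT as well as above Cis KO. These 3 comparisons share their libraries and are not independent of each other. Without Cis KO replicate 2 the values were -4.88, 5.96 and 1.08. Among the 10265 genes with a mean of at least 5 CPM in their highest group, the size of the Ccn3 change ranked 45 in Cis KO over WT, 29 in Cis Stat6 KO over Cis KO and 413 in Cis Stat6 KO over WT.

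Within the transcriptome, Ccn3 stood among the abundant genes in Cis Stat6 KO and WT and near the middle in Cis KO. Its FPKM lay at percentile 96.95 and 97.7 of detected genes in Cis Stat6 KO, 50.36 and 41.45 in Cis KO and 94.51 and 95.09 in WT. It made up 14.1% and 15.9% of the summed FPKM of the 9 genes in Cis Stat6 KO, 0.480% and 0.420% in Cis KO and 9.53% and 10.8% in WT. In log2(CPM + 1) the replicates of Cis KO differed by 0.036, and those of Cis Stat6 KO by 0.55, a gap wider than that of 91.03% of the genes with at least 5 CPM. In FPKM the ratio of the replicates was 1.23 in Cis KO and 1.26 in Cis Stat6 KO.

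**Figure D1:**
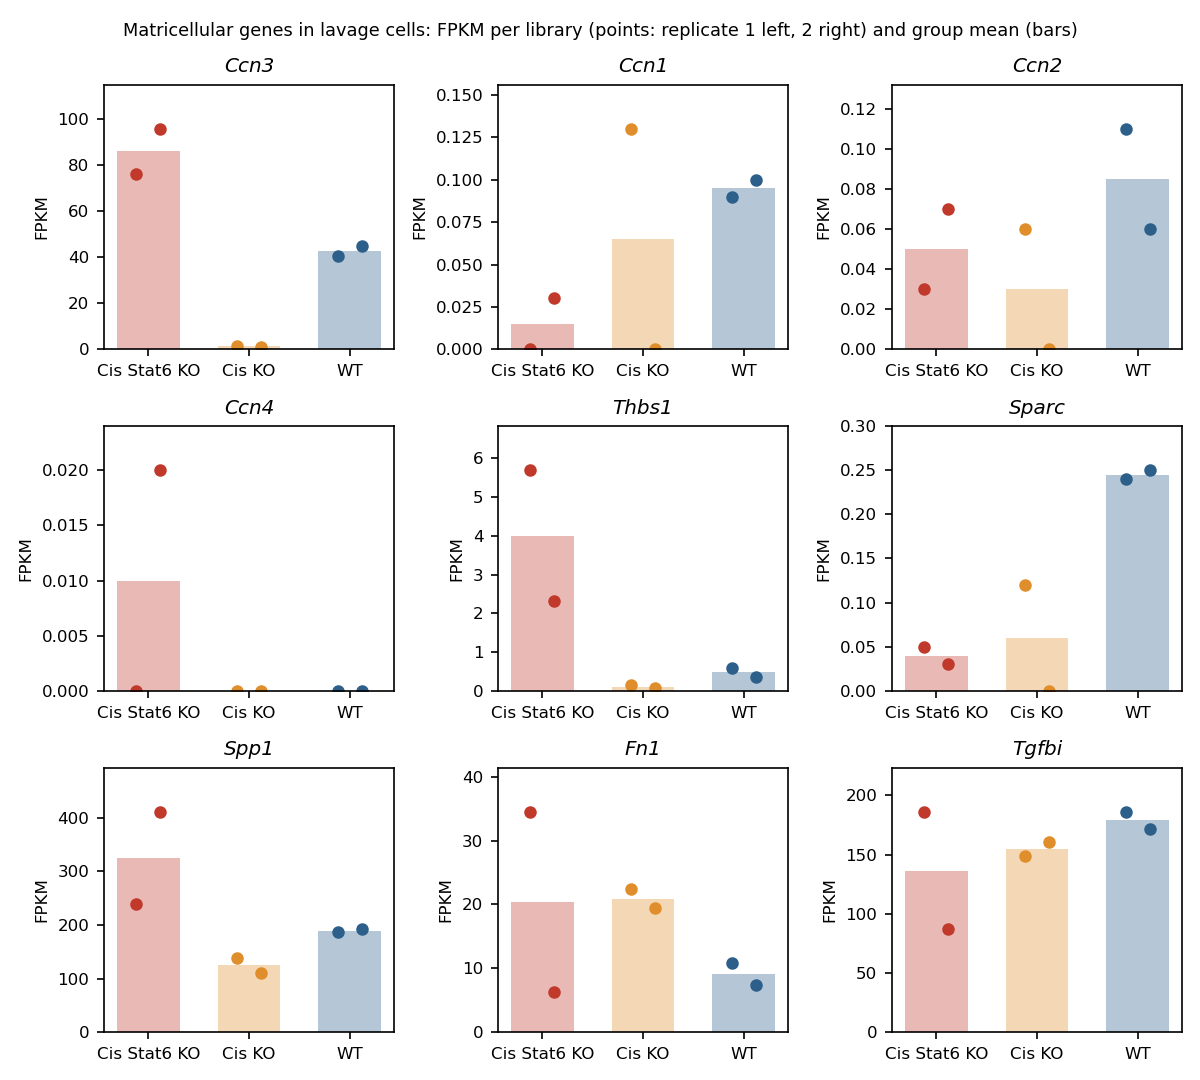
FPKM (y axis, own scale per panel) of the 9 matricellular genes in each library, in Cis Stat6 KO, Cis KO and WT from left to right; points are libraries and bars are group means (n = 2 each). Ccn3, Thbs1 and Spp1 share the order of lowest in Cis KO and highest in Cis Stat6 KO, while Ccn1, Ccn2, Ccn4 and Sparc stay at or below 0.25 FPKM.

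Thbs1 (chromosome 2, 118111876 to 118127133, plus strand) encodes thrombospondin-1, which binds CD36 and CD47 and can release TGF-beta from its latent complex. It had 5.69 and 2.32 FPKM in Cis Stat6 KO, 0.15 and 0.07 FPKM in Cis KO and 0.60 and 0.36 FPKM in WT, on 2460 and 819, 62 and 24, and 226 and 161 counts in the same order. As for Ccn3, the 3 groups did not overlap, with Cis KO lowest and Cis Stat6 KO highest, at a level far below that of Ccn3. Such gaps are common with 2 libraries a group. Of all tested genes, 25.9% were lower in Cis KO than in WT without overlap, and 23.3% higher in Cis Stat6 KO than in WT. The share of genes with all 3 levels in this order was not counted. Thbs1 rose in Cis Stat6 KO over Cis KO by 5.09 ± 0.57 on the log2 scale, 34.1-fold (adjusted p = 0.0313, edgeR quasi-likelihood test over all genes). In Cis KO over WT its log2 fold change was -2.03 ± 0.51 (adjusted p = 0.325), and in Cis Stat6 KO over WT it was 3.07 ± 0.51 (adjusted p = 0.152), neither past the threshold of 0.05.

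The call of Thbs1 in Cis Stat6 KO over Cis KO held without Cis KO replicate 2 (log2 fold change 4.75, adjusted p = 0.0104). It was lost without Cis Stat6 KO replicate 1 (4.45, adjusted p = 0.152) or replicate 2 (5.54, adjusted p = 0.128). In Cis Stat6 KO over WT the log2 fold change of Thbs1 was 3.07 without Cis KO replicate 2. In Cis KO over WT it was -1.68 without Cis KO replicate 2 and -2.52 without Cis KO replicate 1. Thrombospondin-1 is also stored in platelets. The 10 platelet markers summed to 6.73 and 9.31 CPM in Cis Stat6 KO, 1.47 and 5.46 CPM in Cis KO and 3.57 and 3.36 CPM in WT, with 4 and 5, 4 and 3, and 4 and 3 of the 10 at 0 in the same order. Pf4, the chemokine of platelet granules, accounted for most of the sum in Cis Stat6 KO, at 5.71 and 6.82 CPM, against 0.297 and 1.21 CPM in Cis KO and 1.17 and 1.68 CPM in WT. Of the platelet markers, edgeR called 0 in Cis Stat6 KO over Cis KO, while DESeq2 and limma on FPKM called 1 each. Over the whole table these called 60, 1553 and 191 genes. The log2 fold change of Pf4 in that comparison was 3.07 ± 0.75 (adjusted p = 0.159 by edgeR). The other platelet markers were near the detection limit and did not move together. Itga2b went the other way, at 0.0289 and 0, 0.203 and 0.913, and 0.0517 and 0.117 CPM in Cis Stat6 KO, Cis KO and WT. Treml1 had 0.621 and 1.71, 0.547 and 0, and 1.78 and 0.745 CPM in the same order. Gp9 had 0 counts in both Cis Stat6 KO libraries. The part of platelet RNA in the Thbs1 difference was not tested.

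Spp1 (chromosome 5, 104435118 to 104441050, plus strand) encodes osteopontin, a ligand of CD44 and of integrins that macrophages secrete. It had the highest or second highest level per length of the 9 genes in every library, at 239.4 and 410.9 FPKM in Cis Stat6 KO, 139.3 and 109.9 FPKM in Cis KO and 186.0 and 192.8 FPKM in WT. The groups again did not overlap and stood in the order of Ccn3, over a far narrower range. Its log2 fold change was 1.38 ± 0.32 in Cis Stat6 KO over Cis KO (adjusted p = 0.145), -0.50 ± 0.32 in Cis KO over WT (adjusted p = 0.521) and 0.87 ± 0.32 in Cis Stat6 KO over WT (adjusted p = 0.825). None passed in the edgeR fit, while DESeq2 called the first (1.36, adjusted p = 0.00204). In edgeR the first was 1.38 without Cis KO replicate 1 and 1.37 without Cis KO replicate 2.

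Spp1 is the gene of the Ccn3-like order whose upstream sequence was at hand, so its 250 bases before the first annotated start are shown (RefSeq, GRCm38.p6, plus strand, chr5:104434861-104435110). Ccn1 is shown beside it as the promoter that held the only motif match found among the members (minus strand, chr3:145649986-145650235); capitals mark that match.
Spp1: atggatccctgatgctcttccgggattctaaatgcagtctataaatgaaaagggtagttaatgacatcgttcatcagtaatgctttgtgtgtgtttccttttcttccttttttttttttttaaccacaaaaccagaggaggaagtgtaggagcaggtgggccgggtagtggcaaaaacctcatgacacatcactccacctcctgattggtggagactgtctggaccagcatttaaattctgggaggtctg
Ccn1: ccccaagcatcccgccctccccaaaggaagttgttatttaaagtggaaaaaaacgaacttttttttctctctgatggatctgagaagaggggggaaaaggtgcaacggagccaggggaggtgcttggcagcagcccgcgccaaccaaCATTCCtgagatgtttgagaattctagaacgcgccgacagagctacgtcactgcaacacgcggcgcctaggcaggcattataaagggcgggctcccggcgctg
Promoters of 4 of the 9 genes (Ccn1, Spp1, Tgfbi and Sparc) were in the table; Ccn2, Ccn3, Ccn4, Thbs1 and Fn1 were not matched. In windows of 300 bases, 250 before and 50 after the start, both strands were searched for the STAT5-type TTCNNNGAA, the STAT6-type motif (TTC and GAA with 4 bases between), the AP-1 letters TGACTCA or TGAGTCA, the NF-kappaB motif (GGGAA or GGGAC followed by TTTCC) and the TEAD letters GGAATG. The match in Ccn1 was the TEAD motif on the opposite strand, starting 103 bases before the start site, a motif that 14.66% of 32851 promoters held. The STAT5-type motif was held by 8.298% of promoters, the STAT6-type by 6.953%, AP-1 by 5.202% and NF-kappaB by 0.2435%, and none of their letters occurred in the windows of these 4 genes, Spp1 with its second start included.

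Fn1 (chromosome 1, 71585520 to 71653175, minus strand) encodes fibronectin, a matrix glycoprotein that cells grip through integrins. It had 34.5 and 6.34 FPKM in Cis Stat6 KO, 22.4 and 19.5 FPKM in Cis KO and 10.8 and 7.36 FPKM in WT. The 2 Cis Stat6 KO libraries lay above and below all others. In log2(CPM + 1) their gap was wider than that of 99.7% of the genes with at least 5 CPM. Both Cis KO libraries were above both WT libraries, but the log2 fold change of 1.31 ± 0.63 did not pass (adjusted p = 0.463; 1.24 without Cis KO replicate 2). In Cis Stat6 KO it was -0.16 ± 0.62 over Cis KO (adjusted p = 0.921) and 1.16 ± 0.63 over WT (adjusted p = 1). The first turned to 0.57 without Cis Stat6 KO replicate 2 and the second to -0.36 without Cis Stat6 KO replicate 1.

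Tgfbi (chromosome 13, 56609523 to 56639562, plus strand) encodes a secreted adhesion protein that TGF-beta induces. Its levels were 185.7 and 87.2 FPKM in Cis Stat6 KO, 148.9 and 160.2 FPKM in Cis KO and 186.2 and 171.3 FPKM in WT. Both Cis KO libraries lay within the range of the Cis Stat6 KO libraries, while their range lay below that of WT in FPKM. The log2 fold changes were -0.28 ± 0.32 in Cis Stat6 KO over Cis KO (adjusted p = 0.659), -0.08 ± 0.32 in Cis KO over WT (adjusted p = 0.921) and -0.36 ± 0.32 in Cis Stat6 KO over WT (adjusted p = 1). Without Cis KO replicate 2 the first was -0.05 and the second -0.32. In WT, Tgfbi, Spp1 and Ccn3 were the 3 most abundant of these genes per length, and in Cis KO they were Tgfbi, Spp1 and Fn1.

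The remaining genes were near the detection limit. Sparc, which encodes a collagen-binding protein of remodelling tissue, had 14 and 8 counts in Cis Stat6 KO, 31 and 0 in Cis KO and 56 and 70 in WT. The WT libraries were above all others, without a call (log2 fold change -2.01 ± 1.69 in Cis KO over WT, adjusted p = 0.625, and -2.42 ± 1.72 in Cis Stat6 KO over WT, adjusted p = 1). The first was -1.03 (adjusted p = 0.803) without Cis KO replicate 2. Without Cis KO replicate 1, which leaves 0 Sparc counts in Cis KO, the gene was called lower in Cis KO over WT (adjusted p = 0.0158) and higher in Cis Stat6 KO over Cis KO (adjusted p = 0.0474), calls that rest on that 1 library. Ccn1 and Ccn2, whose proteins are known as YAP- and TGF-beta-responsive regulators of fibroblast adhesion and matrix production, had 0 and 4 counts and 6 and 13 counts in Cis Stat6 KO. They had 18 and 0 counts and 12 and 0 counts in Cis KO, and 11 and 16 counts and 19 and 12 counts in WT. Ccn4, known as a WNT1-inducible gene, had 0 and 8 counts in Cis Stat6 KO and 0 in every other library, and was left out of the test by the filter on low counts. A library with 0 counts allows a level of up to 3 counts, or 0.0455 to 0.0591 CPM by library, counting error only. Ccn1 was lower in both Cis Stat6 KO libraries than in both WT libraries, with a log2 fold change of -2.36 ± 2.44 (adjusted p = 1), and Ccn2 overlapped between the groups of every comparison. Neither was called in any comparison, with standard errors of 1.91 or more on the log2 scale. Of these 4 CCN genes, Ccn3 was thus the one expressed above trace level in these cells.

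The 12 fibroblast and mesothelial markers summed to 15.5 and 13.1 CPM in Cis Stat6 KO, 4.34 and 13.9 CPM in Cis KO and 19.3 and 16.3 CPM in WT, with 5 and 5, 5 and 8, and 4 and 4 of the 12 at 0. The most abundant were the mesothelial gene Msln, at 6.41 and 2.51 CPM in Cis Stat6 KO, 1.78 and 5.50 CPM in Cis KO and 7.90 and 8.74 CPM in WT, and the smooth muscle actin gene Acta2, at 6.17 and 6.80 CPM in Cis Stat6 KO, 1.81 and 6.39 CPM in Cis KO and 8.28 and 5.14 CPM in WT. Both were lowest in Cis KO replicate 1. The 15 alveolar macrophage markers summed to 34890 and 44970 CPM in Cis Stat6 KO, 21730 and 17000 CPM in Cis KO and 17540 and 25320 CPM in WT, and the sum was highest in Cis Stat6 KO, as were Ccn3, Thbs1 and Spp1. The markers did not move together: 9 of 15 had a log2 fold change above 0 and 6 below 0 in Cis Stat6 KO over Cis KO, with a median of 0.08, and the median over WT was 0.29. Among the lower ones in Cis Stat6 KO over Cis KO, none past the threshold, were Ear1 (-0.98), Cidec (-0.86), Ear2 (-0.79) and Siglecf (-0.26). The largest part of it was Chil3, which encodes a chitinase-like protein of alveolar macrophages, with 22270 and 31120 CPM in Cis Stat6 KO, 11570 and 6878 CPM in Cis KO and 8773 and 15010 CPM in WT (1.53 ± 0.39 in Cis Stat6 KO over Cis KO, adjusted p = 0.163). Of the 15 markers, edgeR called 1 in Cis Stat6 KO over Cis KO, against 0.358% of all tested genes. An unadjusted p under 0.05 by edgeR was found for 8 of the 15, against 3064 of 16765 tested genes. DESeq2 called 8 of the 15, against 1553 genes of the table. The 1 called by edgeR was Ctsk, the gene of a collagen-degrading protease. Ctsk had 1871 and 2808 CPM in Cis Stat6 KO, 482.0 and 478.0 CPM in Cis KO and 769.7 and 665.2 CPM in WT. Its log2 fold change was 2.28 ± 0.25 (adjusted p = 0.0313), and the call was lost without any 1 of the WT or Cis Stat6 KO libraries (adjusted p of 0.0523, 0.0624, 0.0579 and 0.181 without WT replicates 1 and 2 and Cis Stat6 KO replicates 1 and 2). It held without Cis KO replicate 2 (2.27, adjusted p = 0.00769), where Fabp4 and Marco were called as well. Among neutrophil markers, S100a9 had 27.7 and 72.3 CPM in Cis Stat6 KO, 0.438 and 132.7 CPM in Cis KO and 1.35 and 1.24 CPM in WT. Retnlg had 1.42 and 11.98 CPM, 0.188 and 20.4 CPM, and 0.0862 and 0.132 CPM, and Cxcr2 10.4 and 10.1 CPM, 2.94 and 4.11 CPM, and 3.45 and 3.19 CPM, in the same order. These 3 were thus higher in Cis Stat6 KO than in WT, as Thbs1 and Spp1 were, and so were S100a8 and Mmp8. Csf3r went the other way, at 64.2 and 53.9, 61.8 and 61.0, and 115.6 and 113.3 CPM in the same order. Ly6g, Ngp, Camp and Ltf overlapped between Cis Stat6 KO and WT. Of all tested genes, 23.3% were higher in Cis Stat6 KO than in WT without overlap of the libraries, and 23.5% lower. In that comparison edgeR called 0 of the 10 neutrophil markers (0.131% of all tested genes). DESeq2 called 2 of the 10, against 323 genes of the table. An unadjusted p under 0.05 by edgeR was found for 5 of the 10, against 898 of 16765 tested genes. The sum of the 10 neutrophil markers was 279.6 and 302.0 CPM in Cis Stat6 KO and 243.7 and 235.6 CPM in WT. In bulk RNA, fewer cells of a type and less RNA per cell cannot be told apart, and the part of cell composition in the member differences was not tested.

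**Figure D2:**
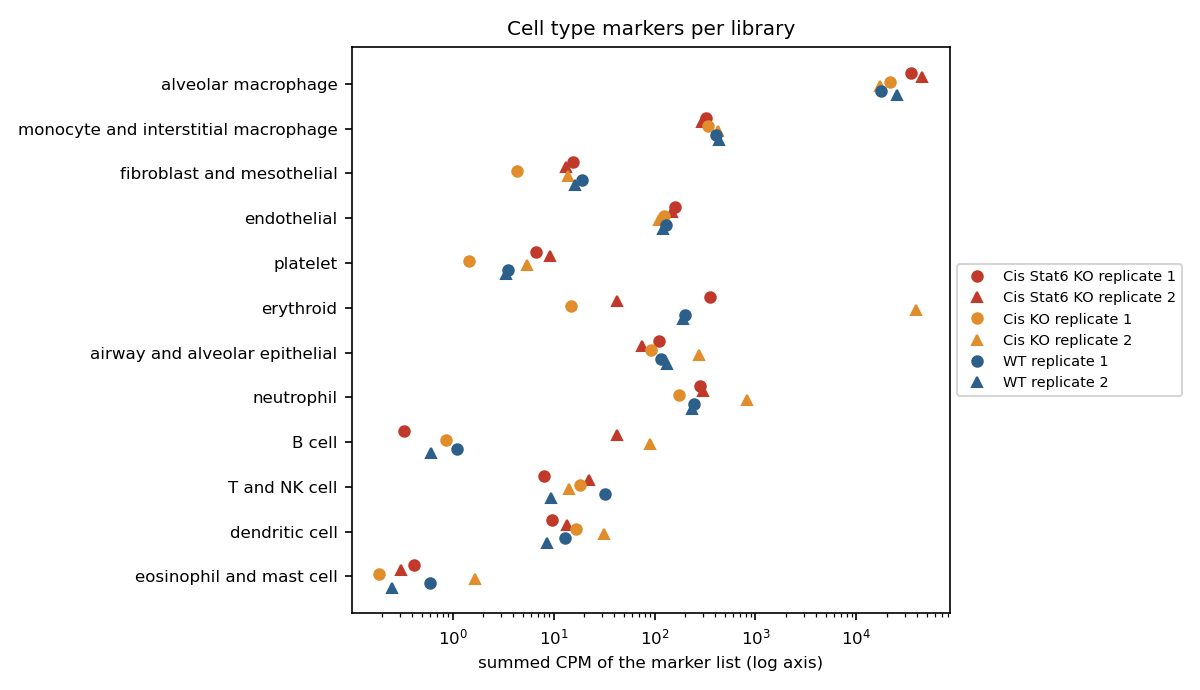
Summed CPM (log axis) of 12 lists of cell type markers in each library of Cis Stat6 KO, Cis KO and WT; each point is a library. Alveolar macrophage markers lead in every library but Cis KO replicate 2, where erythroid markers reach 38650 CPM, and platelet and fibroblast markers stay under 20 CPM.

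Across the 8 genes other than Ccn3, of which 7 passed the filter, 0 were called in Cis KO over WT, where 0.274% of 16765 tested genes were called. In Cis Stat6 KO over Cis KO 1 was called, Thbs1 (background 0.358%), and in Cis Stat6 KO over WT 0 were called (background 0.131%). At an unadjusted p under 0.05 by edgeR the counts were 1, 2 and 2, against 1862, 3064 and 898 of the 16765 tested genes. DESeq2 called 1 gene (Thbs1), 2 genes (Thbs1 and Spp1) and 1 gene (Thbs1), and limma on FPKM called 0, 1 and 0. Over the whole table DESeq2 called 541, 1553 and 323 genes, and limma on FPKM 74, 191 and 52. With Ccn3 left aside, the libraries did not overlap for 1 higher and 3 lower genes of 8 in Cis KO over WT, where 21.4% and 25.9% of all tested genes did so. The counts were 2 higher and 0 lower in Cis Stat6 KO over Cis KO (27.9% and 22.5% of all genes) and 2 higher and 2 lower in Cis Stat6 KO over WT (23.3% and 23.5%). With 8 genes these counts are close to the shares of all genes, and no common direction of the set is read from them. The median log2 fold change of all tested genes was -0.05, 0.05 and 0 in the 3 comparisons.

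**Figure D3:**
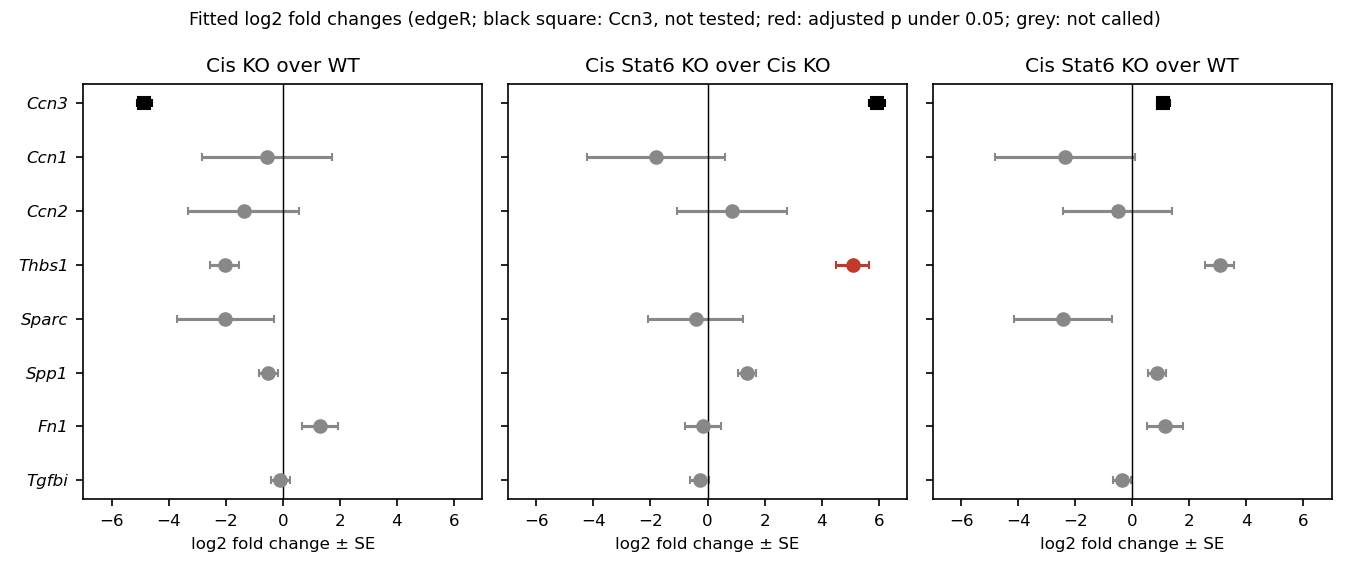
Log2 fold change (x axis) with its standard error for each tested member in Cis KO over WT, Cis Stat6 KO over Cis KO and Cis Stat6 KO over WT; Ccn4 is absent because it failed the filter. Ccn3 and Thbs1 lie farthest from 0 in Cis Stat6 KO over Cis KO, at 5.95 and 5.09, while Ccn1, Ccn2 and Sparc have standard errors of 1.66 to 2.44.

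Genes whose pattern over the 6 libraries was most like that of Ccn3, by Pearson r of log2(CPM + 1) among 9514 genes, were Ddhd1 (r = 0.9967), Ptgr1 (0.9958), Pik3ca (0.9951), Cxcl2 (0.9947) and Hprt (0.9944). With 6 libraries in 3 groups these values describe the group levels and carry no test. Cxcl2, which encodes a neutrophil-attracting chemokine, had 51.7 and 63.8 CPM in Cis Stat6 KO, 2.55 and 3.01 CPM in Cis KO and 26.0 and 26.2 CPM in WT. Ddhd1, a phospholipase gene, had 183.2 and 189.1 CPM in Cis Stat6 KO, 67.5 and 65.3 CPM in Cis KO and 155.8 and 169.1 CPM in WT. Ptgr1, a prostaglandin reductase gene, had 74.5 and 85.2 CPM in Cis Stat6 KO, 25.8 and 23.9 CPM in Cis KO and 70.5 and 68.5 CPM in WT. Of the 5, Cxcl2 had the largest log2 fold changes, and in all 5 the Cis KO libraries were lowest. The least like were Ung (r = -0.9939), Hps1 (-0.9917) and Relt (-0.9903), all highest in Cis KO. Among the members, Thbs1 had r = 0.8135 with Ccn3 (rank 1005), Spp1 0.8121 (rank 1021), Tgfbi -0.2956 and Fn1 -0.4914.

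**Figure D4:**
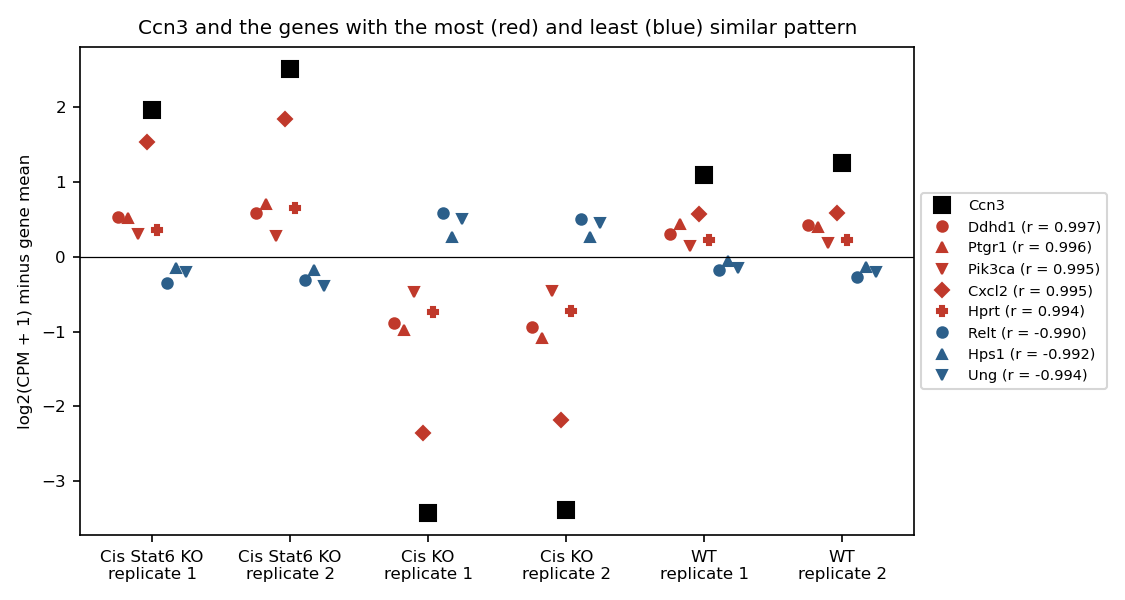
Log2(CPM + 1) minus each gene's mean over the 6 libraries (y axis) for Ccn3, the 5 genes most like it and the 3 least like it, by library in Cis Stat6 KO, Cis KO and WT. The like genes dip in both Cis KO libraries and the unlike genes peak there; the dip of Ccn3 is deeper than that of the others.

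On chromosome 15, 6 tested genes lay within 500 kb of Ccn3. The edgeR fit called 0 of them in each comparison. An unadjusted p under 0.05 was found for 1, 1 and 0 of them and DESeq2 called 1, 1 and 0, both counted as an addition after the data were seen. Over all 16765 tested genes the unadjusted counts were 1862, 3064 and 898, and DESeq2 called 541, 1553 and 323 genes of the table. Annotated genes overlapped Spp1 on the same strand (Gm42793, 1 to 50 counts) and Fn1 on the opposite strand (Apol7d, 0 to 9 counts). How reads of the overlaps were assigned is not stated, and their part in the members' levels was not tested.

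Related genes were read from 5 lists. Of 28 matricellular relatives, 10 passed the filter and 0 were called in each comparison, with medians of -0.22 in Cis KO over WT, 0 in Cis Stat6 KO over Cis KO and -0.38 in Cis Stat6 KO over WT. Fstl1, which encodes the follistatin-like member of the Sparc family, had 30.1 and 122.7 CPM in Cis Stat6 KO, 7.30 and 10.3 CPM in Cis KO and 26.0 and 23.2 CPM in WT. Its libraries stood in the order of Ccn3 without a call (log2 fold change 3.12 ± 0.63 in Cis Stat6 KO over Cis KO, adjusted p = 0.121, and 3.37 with adjusted p = 0.0702 without Cis KO replicate 2). Efemp2, an elastic-fibre gene, had 9.82 and 8.84 CPM in Cis Stat6 KO, 10.1 and 14.7 CPM in Cis KO and 8.83 and 7.57 CPM in WT. Of 22 receptor genes, 20 were tested and 0 were called in each comparison, with medians of -0.02, -0.30 and -0.04 in the same order. The integrin genes Itgb2, at 1844 and 1777, 1714 and 2047, and 1881 and 1753 CPM in Cis Stat6 KO, Cis KO and WT, and Itgax, at 1673 and 1797, 1424 and 1175, and 1323 and 1510 CPM, had the highest mean CPM of the list, a scale that does not correct for length.

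Of 24 TGF-beta pathway genes, 21 were tested and 0 were called, with medians of -0.39, 0.48 and -0.01. The ligand gene Tgfb1 had 417.0 and 396.1 CPM in Cis Stat6 KO, 576.4 and 1274 CPM in Cis KO and 519.4 and 458.0 CPM in WT, with its highest value in the library with haemoglobin. The receptor gene Tgfbr2 had 442.4 and 408.6 CPM in Cis Stat6 KO, 459.6 and 342.3 CPM in Cis KO and 395.0 and 448.7 CPM in WT. Of 19 YAP and TEAD pathway genes, 16 were tested and 0 were called, with medians of -0.36, 0.58 and 0; with genes at 0 in 1 group set to their bound the first was -0.49. The kinase gene Stk4 had 123.0 and 104.0, 139.5 and 103.7, and 132.5 and 132.8 CPM, and its partner gene Mob1a had 394.2 and 349.5, 412.8 and 264.3, and 388.4 and 412.7 CPM, in Cis Stat6 KO, Cis KO and WT. Over these 4 lists the unadjusted p was under 0.05 for 3, 1, 4 and 4 genes in Cis KO over WT, for 2, 3, 5 and 4 in Cis Stat6 KO over Cis KO and for 1, 3, 4 and 1 in Cis Stat6 KO over WT. DESeq2 called 1, 0, 0 and 0, then 2, 2, 4 and 2, then 0, 2, 1 and 0 of them in the same order. Over all 16765 tested genes the unadjusted p was under 0.05 for 1862, 3064 and 898, and DESeq2 called 541, 1553 and 323 genes of the table.

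Of 25 genes of matrix crosslinking and turnover, 22 were tested, and Mmp14 was called in Cis Stat6 KO over Cis KO, 1 of 22 against the background of 0.358%. Mmp14, the gene of a membrane-bound collagenase, had 8.20 and 8.35 CPM in Cis Stat6 KO, 0.687 and 0.616 CPM in Cis KO and 4.98 and 3.97 CPM in WT. The 3 groups did not overlap and stood in the order of Ccn3. Its log2 fold change was 3.66 ± 0.41 in Cis Stat6 KO over Cis KO (adjusted p = 0.0313), -2.77 ± 0.40 in Cis KO over WT (adjusted p = 0.0667) and 0.89 ± 0.37 in Cis Stat6 KO over WT (adjusted p = 0.926). The first was 3.75 without Cis KO replicate 1 and 3.58 without Cis KO replicate 2. Its call was lost without any 1 of the WT or Cis Stat6 KO libraries, with log2 fold changes of 3.65 to 3.67. In Cis KO over WT Mmp14 was called by DESeq2 (adjusted p = 7.76e-09) and by edgeR with no filter (adjusted p = 0.000473). Those settings called 541 and 1021 genes there, against 46 in the main fit. Its log2 fold change in Cis KO over WT was -2.87 without Cis KO replicate 1 and -2.70 without Cis KO replicate 2. The medians of the list were -0.46 in Cis KO over WT, 0.19 in Cis Stat6 KO over Cis KO and 0.16 in Cis Stat6 KO over WT, with 0 genes called in the first and the last. The unadjusted p was under 0.05 for 8, 9 and 5 of its genes, against 1862, 3064 and 898 of the 16765 tested genes. DESeq2 called 3, 7 and 2 of the list, against 541, 1553 and 323 genes of the whole table.

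The fit without Cis KO replicate 2 called more genes of the whole table, 1.02% in Cis KO over WT, 2.68% in Cis Stat6 KO over Cis KO and 1.90% in Cis Stat6 KO over WT. Of the matrix crosslinking and turnover genes it called 1 (Mmp14), 4 (Mmp9, Mmp14, Timp2 and Plau) and 2 (Mmp9 and Plau) of 23 tested, with medians of -0.68, 0.63 and 0.17. Of the receptors it called 0, 1 and 1 (Itgam both times) of 21, with medians of -0.09, 0.03 and -0.01. Of the TGF-beta pathway genes it called 0, 1 (Smurf1) and 1 (Tgfb2) of 21, with medians of -0.11, 0.25 and -0.01. Of the YAP and TEAD pathway genes and of the matricellular relatives it called 0 in each comparison, with medians of 0, 0.40 and 0 and of -1.75, 1.01 and -0.40.

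**Figure D5:**
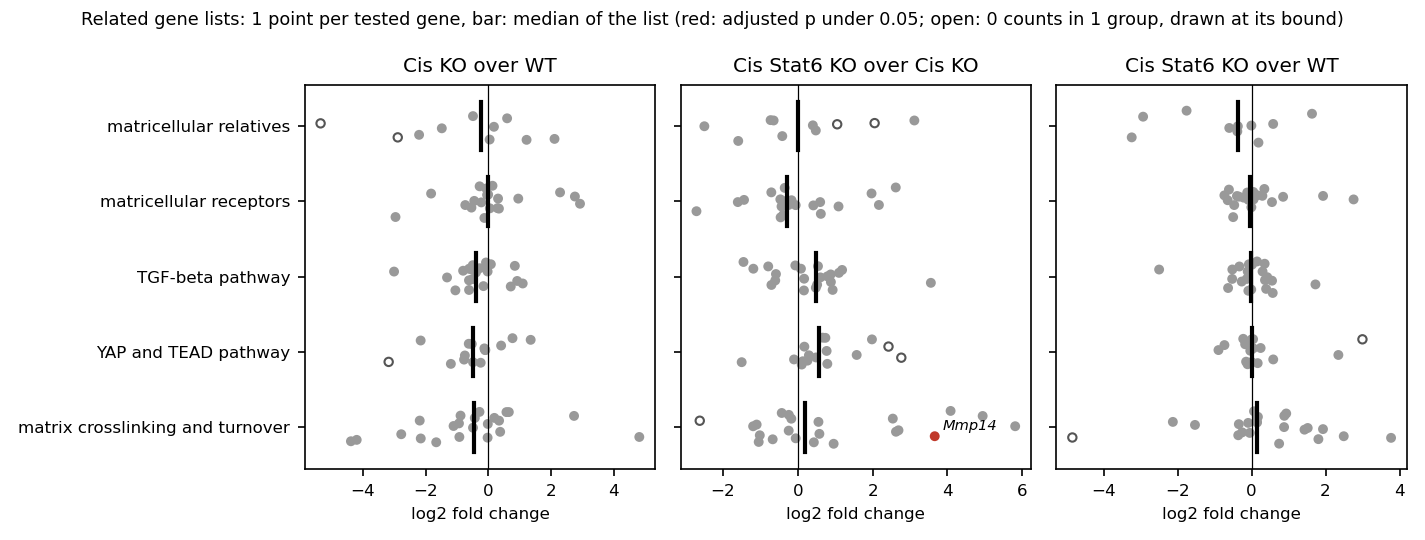
Log2 fold change (x axis) of the tested genes of 5 related lists in Cis KO over WT, Cis Stat6 KO over Cis KO and Cis Stat6 KO over WT; each point is a gene, vertical bars are list medians, red marks a called gene and open circles are genes with 0 counts in 1 group, drawn at a bound of 3 counts over that group. The medians lie between -0.49 and 0.58, and Mmp14 is the called gene.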

How the data were processed

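Per the submitters' processing notes the genome build was mm10; the aligner, counter, annotation release and strandedness are not stated there, so reads of overlapping genes cannot be told apart. The authors deposited raw read counts per gene and FPKM (counts scaled for gene length and library total, rounded to 0.01). The count test was that of edgeR 4.0.16 (R 4.3.3): 6 libraries in 1 fit, TMM scaling, filterByExpr (16765 genes kept), quasi-likelihood F test, two-sided, Benjamini-Hochberg over all genes, threshold 0.05. The standard error is the size of the log2 fold change over the square root of F. CPM used TMM factors. Levels between genes were compared as FPKM. The common biological coefficient of variation was 50.3%, on 3 residual degrees of freedom. Replicates differed beyond counting noise, so none was merged. Alternatives were DESeq2 1.42.0, RLE size factors, no filter, a replicate block, the 2 groups alone, limma 3.58.1 on log2(FPKM + 1) or log2(FPKM + 0.1) with at least 0.5 FPKM or no minimum, and leaving out each library. The code was tested on simulated counts. Members and lists were chosen with earlier results of these data known. Named genes were the 9 members, Cish, Stat6, the 5 genes most and 3 least like Ccn3 (at least 5 CPM in the highest group), and in each list the called genes or the 2 most abundant. S100a9, Retnlg, Cxcr2, Mmp8, Csf3r, Itga2b, Gp9 and 4 alveolar macrophage markers were picked after their values were seen. So were the genes called without Cis KO replicate 2 and the genes of the last paragraphs. Floors cover counting error only.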

Additional observations from a re-analysis of the deposited data

How the results depend on the processing

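Ccn3 was chosen for its steadiness in these libraries, so its range over the 14 alternatives is a description: log2 fold changes of -4.95 to -4.21 in Cis KO over WT, 5.20 to 6.19 in Cis Stat6 KO over Cis KO and 0.79 to 1.32 in Cis Stat6 KO over WT. Counts of called genes depended on the method. Against 46, 60 and 22 genes in the 3 comparisons in that order, DESeq2 called 541, 1553 and 323, no filter gave 1021, 1840 and 385, log2(FPKM + 1) gave 74, 191 and 52, the same with no minimum gave 2, 2 and 1, log2(FPKM + 0.1) gave 99 and 35 in the last 2, and the 2 groups alone gave 6, 5 and 277. Leaving out 1 library gave 3 to 5349, 4 to 5999 and 0 to 350; the highest value of the first 2 came without Cis KO replicate 1, and the cause was not tested. Members called other than Ccn3, against 0, 1 and 0, were 1, 2 and 1 with DESeq2 and 2, 2 and 2 with no filter. In Cis Stat6 KO over Cis KO they were 0 with no FPKM minimum and 0 with the 2 groups alone, where Thbs1 had adjusted p = 0.241 and 0.139; in Cis Stat6 KO over WT they were 1 with the 2 groups alone. Leaving out 1 library gave 0 to 2, 0 to 3 and 0 to 1. The replicate block, on numbers that did not pair the samples (correlations of replicate deviations -0.085, -0.125 and 0.069), gave 24, 28 and 12 genes and 0, 1 and 0 members, and turned Sparc in Cis Stat6 KO over Cis KO to 0.26. It ended the calls of Mmp14 (adjusted p = 0.0659) and Ctsk (0.0631). Leaving out 1 library turned the sign of members that were not called with all libraries: in Cis KO over WT Ccn1 (-6.63 to 0.41) and Tgfbi (-0.32 to 0.11); in Cis Stat6 KO over Cis KO Ccn1 (-6.13 to 4.26), Ccn2 (-0.14 to 6.35), Fn1 (-1.67 to 0.57), Tgfbi (-0.79 to 0.10) and Sparc (-1.40 to 6.42); in Cis Stat6 KO over WT Ccn2 (-1.51 to 0.07), Fn1 (-0.36 to 1.88) and Tgfbi (-0.88 to 0.01). Where Cis KO replicate 1 is left out, Ccn1, Ccn2 and Sparc rest on 0 counts in Cis KO and their fitted values are no bound.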

Other observations

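Several genes of matrix turnover, picked after their values were seen, stood in the order of Ccn3 without passing the edgeR threshold. Plau, the gene of urokinase, had 21.5 and 37.9 CPM in Cis Stat6 KO, 4.20 and 5.43 CPM in Cis KO and 11.4 and 9.31 CPM in WT (log2 fold change 2.63 ± 0.35 in Cis Stat6 KO over Cis KO, adjusted p = 0.0521). Mmp12, the gene of macrophage elastase, had 32.2 and 79.1 CPM in Cis Stat6 KO, 9.48 and 7.71 CPM in Cis KO and 19.3 and 12.5 CPM in WT (2.69 ± 0.47, adjusted p = 0.0905). DESeq2 called both in that comparison (adjusted p = 2.312e-09 for Plau and 6.243e-07 for Mmp12). Without Cis KO replicate 2, edgeR called Plau (2.81, adjusted p = 0.0127) and not Mmp12 (2.54, adjusted p = 0.0575). The inhibitor gene Timp2 ran the other way, with 56.1 and 48.8 CPM in Cis Stat6 KO, 96.1 and 115.8 CPM in Cis KO and 70.3 and 64.3 CPM in WT (-1.01 ± 0.19, adjusted p = 0.104, and -0.88 with adjusted p = 0.0398 without Cis KO replicate 2).

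Tgfb2, a TGF-beta ligand gene, did not share the order of Ccn3. It had 1.13 and 1.15 CPM in Cis Stat6 KO, 3.08 and 3.15 CPM in Cis KO and 7.38 and 5.51 CPM in WT, with a log2 fold change of -2.50 ± 0.43 in Cis Stat6 KO over WT (adjusted p = 0.162 by edgeR, 0.0120 by edgeR without Cis KO replicate 2 and 1.223e-06 by DESeq2). Tnfrsf11b, the gene of the decoy receptor osteoprotegerin and a chromosome 15 neighbour of Ccn3, had 0.823 and 0.617 CPM in Cis Stat6 KO, 0 counts in both Cis KO libraries and 0.673 and 0.409 CPM in WT. Set against 3 counts over the Cis KO group, it was at least 25.9-fold higher in Cis Stat6 KO than in Cis KO and at least 19.4-fold lower in Cis KO than in WT, with adjusted p = 0.141 and 0.282 by edgeR and 0.00156 and 0.00561 by DESeq2.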
